A study of Homo sapiens with 4 samples.

Results

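The proteasome subunit genes are the 40 protein-coding genes whose symbols are PSMA, PSMB, PSMC, PSMD or PSME followed by a number and that held at least 10 reads summed over the 4 libraries. They were taken from a table of 58735 genes by symbol, biotype and read number, so their choice used no difference between libraries. A further 3 genes had a matching symbol but too few reads. These were PSMA8, an alpha subunit of the testis, with 0 reads, PSMB8 with 9 and PSMB11, a subunit of the thymus, with 1. RNA was sequenced from HEK293T cells, a line derived from human embryonic kidney, in which the PBRM1 gene had been knocked out by CRISPR. All 4 cultures carried that knockout and received a plasmid for GFP-tagged PBRM1 for 48 h. The plasmid coded for unaltered PBRM1 (WT) or for PBRM1 with the change P1048R, T1202K or C1233W. PBRM1 belongs to PBAF, a complex that remodels chromatin, and the series asks how the transcriptome differs between cells given the WT and the mutant proteins. There was 1 library per construct, so no difference has a replicate check, no p-value can be given, and every interval covers counting error only. The sources used here do not say whether the knockout line was 1 clone, and a library without a plasmid was not analysed here.

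The proteasome is the large protease that degrades proteins tagged with ubiquitin. Its core particle is a barrel of alpha rings, which form the gate, and beta rings, which hold the active sites. The regulatory particle caps the barrel with a ring of ATPases, which unfold the substrate, and a set of non-ATPase subunits, which bind ubiquitin, remove it and hold the complex together. Dedicated chaperones assemble these parts, and alternative activators can replace the regulatory particle at the ends of the barrel. Cells that lack proteasome activity are known to raise the subunit genes together through the transcription factor NFE2L1, which binds antioxidant response elements in their promoters.

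The libraries held between 10246250 and 11205322 counted reads. Levels are in CPM, the standard depth-normalised read rate, on library sizes scaled with edgeR's TMM method (trimmed mean of M values), and differences as log2 ratios between libraries with a 95% counting interval. PBRM1 itself, which the plasmid supplies, stood at 22768 CPM in WT, 8805 in P1048R, 15262 in T1202K and 60509 in C1233W. The plasmid dose therefore cannot be told apart from the construct in any comparison. The embryonic kidney markers PAX2, LHX1, EYA1 and SALL2 were detected in every library. Among markers of other cell types, PTPRC, CD3E, APOA1, DCN, PECAM1, CDH5, KRT5 and KRT14 had 0 to 3 reads per library, ALB 2 to 18 and COL1A1 189 to 312.

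Proteasome subunit mRNA was highest in the WT library. The 40 genes together stood at 6337 CPM in WT (95% Poisson interval 6286 to 6388), 4900 in P1048R, 5511 in T1202K and 4661 in C1233W. As a share of all counted reads, they held 0.578%, 0.522%, 0.568% and 0.466% in the same order. Such a share amounts to scaling by total counts, and the total includes the PBRM1 reads, which differ between libraries. The T1202K share was thus close to WT, and the C1233W share the lowest of the 4. The Poisson intervals of the 4 sums did not overlap, although the spread between cultures is not known. As bulk measurements, the levels cannot tell fewer expressing cells from less RNA per cell.

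Of the 40 genes, 39 reached 1 CPM in at least 1 library and were compared with all 16262 genes that did. The other, PSMD5, had 9, 5, 4 and 8 reads in WT, P1048R, T1202K and C1233W. A gene passed the size rule when its log2 ratio was at least 0.32 in size and its interval excluded 0. In P1048R against WT, 20 of the 39 were lower and 1, PSMB10, was higher, where 18.8% of all genes were lower and 18.2% higher. In T1202K against WT, 10 were lower and 1, PSMD3, was higher, beside 13% and 15.8% of all genes. In C1233W against WT, 24 were lower and 0 higher, beside 14.8% and 15.1% of all genes. The difference was small for each gene: past 2-fold stood only PSMB10 in P1048R against WT, where 7.5% of all genes passed in either direction, and no member in T1202K (5.15%) or C1233W (5.4%).

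The median log2 ratio of the 39 genes was -0.33 in P1048R, -0.16 in T1202K and -0.42 in C1233W, beside -0.04, -0.01 and -0.01 for all genes tested. Ratios below 0 were found for 36, 29 and 39 of the 39 genes. Among all genes tested, 0 lay between percentiles 53 and 54 in P1048R and between 50 and 51 in T1202K and C1233W. These values depend on the scaling. With libraries scaled to their total counts, the median of all genes moved to 0.18, 0.17 and 0.12, and that of the members to -0.10, 0.01 and -0.29, so the sign for T1202K turned. Relative to all genes, the members' median was -0.29, -0.15 and -0.41. A change of scaling cannot alter these differences, because it shifts every ratio of a comparison by the same amount. Without the filter on level, where 32687 genes were compared, they were -0.14, 0.0031 and -0.30. There the median of all genes moved to -0.19, -0.19 and -0.11, and that of the members was -0.33, -0.18 and -0.42. With a minimum of 5 CPM, where 12193 genes were compared, the differences were -0.31, -0.22 and -0.38. In T1202K against WT the split of 1 higher and 10 lower became 3 and 4 with total counts, where 27.3% of all genes were higher and 5.45% lower. It became 2 and 5 with totals that left out PBRM1 and the mitochondrially encoded genes, beside 23.3% and 7.13% of all genes. For C1233W the same scalings left 17 and 15 genes lower, beside 7.71% and 6.59% of all genes, and 0 higher, beside 22.3% and 24.5%. Genes of similar level leaned the same way to a smaller extent. Of the 4294 other genes within the range of the 33 members that averaged at least 50 CPM (54.7 to 420 CPM), 24.7%, 16.7% and 24.1% were lower in P1048R, T1202K and C1233W, against 17, 9 and 21 of those 33 members.

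All 3 comparisons with WT share the WT library, so a deviation of that library alone would enter each of them. WT was the highest library for 29 of the 39 genes and the lowest for 0, whereas among all genes tested it was highest for 33.4% and lowest for 31.0%. T1202K was the highest for 9 genes, P1048R for 1 and C1233W for 0, beside 19.1%, 23.6% and 24.0% of all genes. The count for T1202K is near its share. The lowest library was C1233W for 24 genes, P1048R for 15 and T1202K for 0, beside 25.1%, 27.1% and 16.9% of all genes. This ranking used the TMM scaling and depends on it. With total counts, 10, 20 and 3 of the 39 ratios to WT lay above 0 in P1048R, T1202K and C1233W. The median of all genes was then itself above 0, at 0.18, 0.17 and 0.12. With totals that left out PBRM1 and the mitochondrially encoded genes, 8, 16 and 5 of the 39 ratios lay above 0. The median of all genes was there 0.12, 0.11 and 0.15. What set the WT library apart for these genes under TMM was not tested.

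**Figure D1:**
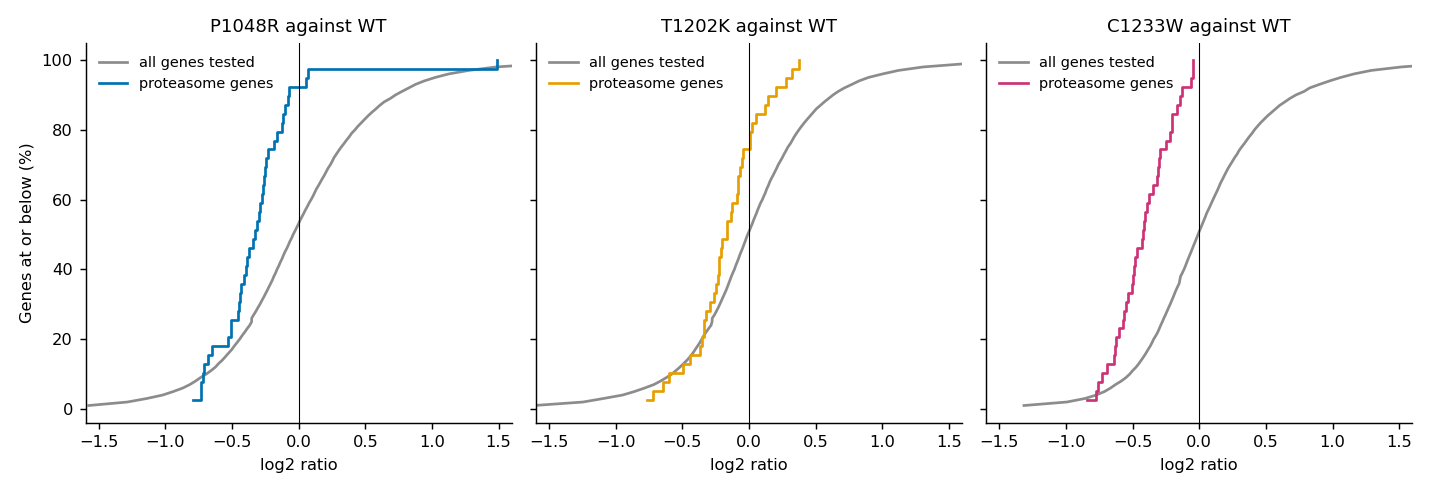
Cumulative share of genes (vertical axis, percent) at or below each log2 ratio to WT (horizontal axis), for the 39 proteasome genes (coloured steps) and all 16262 genes tested (grey line), 1 panel per mutant. The proteasome genes lie to the left of all genes over most of their range, with medians of -0.33, -0.16 and -0.42.

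Promoter sequence is shown because these genes are known as targets of NFE2L1, and because their ratios to WT leaned the same way. Windows of 250 bases before to 50 after the transcript start, from RefSeq on GRCh38.p14, were found for 35 of the 40 members, 41 windows in all. PSMA7, PSMB1, PSMB6, PSMB7 and PSMD4 had no entry. The antioxidant response element was searched as TGACNNNGC on both strands and was present in 13 of the 41 windows (31.7%), beside 13.3% of all 35116 promoter windows and 14.3% of those of the genes tested. The following 120 bases end at the base before the start and read 5′ to 3′ on the gene's strand. Capitals mark the antioxidant response element (on the opposite strand GCNNNGTCA), and also CCAAT, the AP-1 and NF-E2 core TGAGTCA and the ETS core CCGGAAGT where present. The first set holds the 6 members whose element lies in these 120 bases.
PSMB3, chr17:38752621-38752740, plus strand: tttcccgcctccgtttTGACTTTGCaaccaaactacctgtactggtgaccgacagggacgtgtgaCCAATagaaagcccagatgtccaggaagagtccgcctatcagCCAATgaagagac
PSMC5, chr17:63827601-63827720, plus strand: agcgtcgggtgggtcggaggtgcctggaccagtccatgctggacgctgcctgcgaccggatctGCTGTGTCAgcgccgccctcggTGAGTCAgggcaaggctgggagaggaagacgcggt
PSMD3, chr17:39980687-39980806, plus strand: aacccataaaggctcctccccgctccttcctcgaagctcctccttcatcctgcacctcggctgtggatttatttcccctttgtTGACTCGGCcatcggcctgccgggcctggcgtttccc
PSMD9, chr12:121888670-121888789, plus strand: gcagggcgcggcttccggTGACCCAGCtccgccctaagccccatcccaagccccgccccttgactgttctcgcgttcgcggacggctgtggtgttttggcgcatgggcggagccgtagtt
PSME1, chr14:24136074-24136193, plus strand: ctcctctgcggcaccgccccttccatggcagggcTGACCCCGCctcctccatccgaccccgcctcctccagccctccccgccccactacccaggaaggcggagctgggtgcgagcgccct
PSME4, chr2:53970994-53971113, minus strand: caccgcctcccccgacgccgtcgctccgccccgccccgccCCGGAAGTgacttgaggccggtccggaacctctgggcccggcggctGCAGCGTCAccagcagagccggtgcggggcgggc

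The second set holds PSMC1, PSMA2 and PSMA4, the 3 members with a window whose mean log2 ratio to WT over the mutants was lowest. Each was among the 3 lowest members in 2 of the 3 comparisons. None of them has the element within these bases. Members of the first set were barred from the second, so this absence follows from the choice and carries no information.
PSMC1, chr14:90256433-90256552, plus strand: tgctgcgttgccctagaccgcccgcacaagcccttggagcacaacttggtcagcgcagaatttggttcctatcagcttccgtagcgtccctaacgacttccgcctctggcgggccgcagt
PSMA2, chr7:42932175-42932294, minus strand: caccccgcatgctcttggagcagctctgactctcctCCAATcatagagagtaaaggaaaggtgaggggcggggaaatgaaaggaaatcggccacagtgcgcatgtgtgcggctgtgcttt
PSMA4, chr15:78540285-78540404, plus strand: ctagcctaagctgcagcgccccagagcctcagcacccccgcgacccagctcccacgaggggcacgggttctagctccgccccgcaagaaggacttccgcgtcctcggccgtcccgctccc

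PSMA4 has 3 windows, for different starts, and another of them holds TGACNNNGC. Conversely, PSMC5 also has a window for a start further upstream, which does not hold it. Among tested members with a window, 4, 4 and 7 of the 12 with the element were lower in P1048R, T1202K and C1233W, and 15, 6 and 16 of the 22 without it, beside 18.8%, 13% and 14.8% of all genes. Higher were 1 with the element in T1202K, PSMD3, and 1 without it in P1048R, PSMB10. Their medians were -0.28, -0.17 and -0.36 with the element and -0.40, -0.23 and -0.49 without. PSMD3, the member that was higher in T1202K, and PSME1, among the lowest in P1048R, both hold it. Other short motifs were also found in a larger share of member windows than of all windows. The ETS core CCGGAAGT was in 8 of 41 (19.5%), beside 6.86% of the windows of genes tested and 4.14% of all windows. The YY1 core AAGATGGC was in 6 (14.6%), beside 4.43% and 2.89%, CCAAT in 18 (43.9%), beside 34.5% and 34.6%, and TGAGTCA in 3 (7.32%), beside 3.45% and 4.95%. The antioxidant response element and TGAGTCA can overlap. A match is a description of sequence, and binding was not measured.

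Among the groups of core and regulatory particle subunits, the alpha ring had the lowest summed ratio to WT in all 3 mutants. Its 7 genes summed to 1206 CPM in WT, 799 in P1048R, 864 in T1202K and 797 in C1233W, log2 ratios of -0.59, -0.48 and -0.60. PSMA4 gave 5505 of the 11268 reads of this sum in WT, so it weighs heavily in it. The median ratio of the 7 genes was -0.51, -0.33 and -0.55, also the lowest among these groups. In P1048R 6 of the 7 were lower past the size rule, in T1202K 4 and in C1233W 6, and the exception in each was PSMA7, joined in T1202K by PSMA1 and PSMA6.

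PSMA4 stood at 589 CPM in WT, 355 in P1048R, 388 in T1202K and 347 in C1233W. Its 3 mutant libraries lie close together and well under WT, with log2 ratios of -0.73 (-0.79 to -0.67), -0.60 (-0.66 to -0.54) and -0.76 (-0.82 to -0.70). PSMA3, its fellow alpha subunit, stood at 203 CPM in WT, 124 in P1048R, 129 in T1202K and 144 in C1233W, with log2 ratios of -0.71, -0.65 and -0.49. All mutants were under WT, and C1233W was the nearest to it. PSMA2 stood at 22.0, 12.7, 13.0 and 14.8 CPM in the same order, with log2 ratios of -0.79 (-1.10 to -0.48), -0.76 (-1.08 to -0.45) and -0.57 (-0.89 to -0.27). PSMA5, another member of the ring, stood at 131, 95.2, 103 and 89.2 CPM. PSMA1 had 50.4, 37.9, 42.0 and 32.7 CPM and PSMA6 18.6, 13.1, 15.7 and 13.4. In PSMA7, at 192, 162, 172 and 156 CPM, the mutants were also under WT, but by less than the size rule asks.

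For PSMA1, PSMA2 and PSMA6 the read number carries a further limit. Exons of a second annotated gene on the same strand, AC018523.2, AC010132.3 and AL121594.1, cover 53.2%, 52.5% and 81.0% of their principal transcripts. Depending on counter settings that are not known here, reads over shared exons can go uncounted, so the levels of these 3 genes are uncertain. The second genes themselves held 0 to 7 reads per library.

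In the beta ring the mutants parted. Its 7 genes summed to 1165 CPM in WT, 910 in P1048R, 1126 in T1202K and 944 in C1233W. The log2 ratios were -0.36 for P1048R, -0.05 for T1202K and -0.30 for C1233W, and the T1202K value turned to 0.13 with total counts and to 0.07 with totals without PBRM1 and mitochondrially encoded genes. In P1048R 3 genes were lower past the size rule (PSMB2, PSMB4 and PSMB7), in T1202K 0, and in C1233W 3 (PSMB2, PSMB5 and PSMB6).

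PSMB5, PSMB6 and PSMB7 carry the chymotrypsin-like, caspase-like and trypsin-like active sites. PSMB5 stood at 113 CPM in WT, 93.5 in P1048R, 122 in T1202K and 84.4 in C1233W. T1202K was the highest library and C1233W the lowest, with log2 ratios of -0.27 (-0.39 to -0.15), 0.12 (0.00 to 0.23) and -0.42 (-0.55 to -0.29). PSMB6 stood at 80.8, 68.1, 82.2 and 61.6 CPM in the same order, the same ranking, with log2 ratios of -0.25 (-0.39 to -0.10), 0.03 (-0.11 to 0.17) and -0.39 (-0.55 to -0.24). PSMB7 stood at 168, 127, 159 and 145 CPM. Here P1048R was the lowest, with log2 ratios of -0.39 (-0.50 to -0.29), -0.08 (-0.18 to 0.02) and -0.21 (-0.31 to -0.10). Per kilobase of principal transcript, the 3 levels in WT were 87.2 CPM for PSMB5, 94.8 for PSMB6 and 171 for PSMB7, although which isoforms were expressed is not known. The structural beta subunits followed the group. PSMB2 had 277, 192, 237 and 205 CPM, PSMB4 214, 166, 202 and 174, PSMB1 204, 174, 205 and 175 and PSMB3 108, 89.9, 119 and 98.5.

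The share of core particle reads from beta genes was therefore uneven. It was 49.1% for WT (95% Clopper-Pearson interval 48.5 to 49.8), 53.3% for P1048R (52.6 to 53.9), 56.6% for T1202K (55.9 to 57.2) and 54.2% for C1233W (53.5 to 55.0). This ratio within a library needs no scaling, and WT was the lowest of the 4. A single gene weighs heavily in it, as PSMA4 gave 5505 of the 11268 alpha ring reads in WT.

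The immunoproteasome subunits replace the active beta subunits in immune cells and after interferon. They were near the limit of detection in all 4 libraries, where 3 reads correspond to 0.251 to 0.321 CPM. PSMB8, which missed the read minimum, had 2, 1, 1 and 5 reads in WT, P1048R, T1202K and C1233W. PSMB9 had 15, 16, 19 and 15 reads, and its log2 ratios of -0.26 (-1.37 to 0.86), 0.05 (-0.99 to 1.14) and -0.15 (-1.28 to 0.99) showed no difference detectable at this depth. PSMB10 had 8, 30, 12 and 5 reads, or 0.856, 2.51, 1.06 and 0.484 CPM. P1048R was the highest library, with a log2 ratio to WT of 1.49 (0.39 to 2.89), while those of T1202K at 0.28 (-1.10 to 1.80) and C1233W at -0.77 (-2.78 to 0.97) spanned 0. AC040162.1, a second gene on the same strand that covers 45.3% of the PSMB10 transcript, had 17, 32, 22 and 11 reads, the same order of libraries. Which of the 2 genes those reads came from was not tested. Together, PSMB9 and PSMB10 made up 0.677% (0.429 to 1.01), 1.32% (0.965 to 1.75), 0.748% (0.509 to 1.06) and 0.660% (0.404 to 1.02) of their reads plus those of PSMB5, PSMB6 and PSMB7. PSMB8 was left out of this share, as it missed the read minimum.

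**Figure D2:**
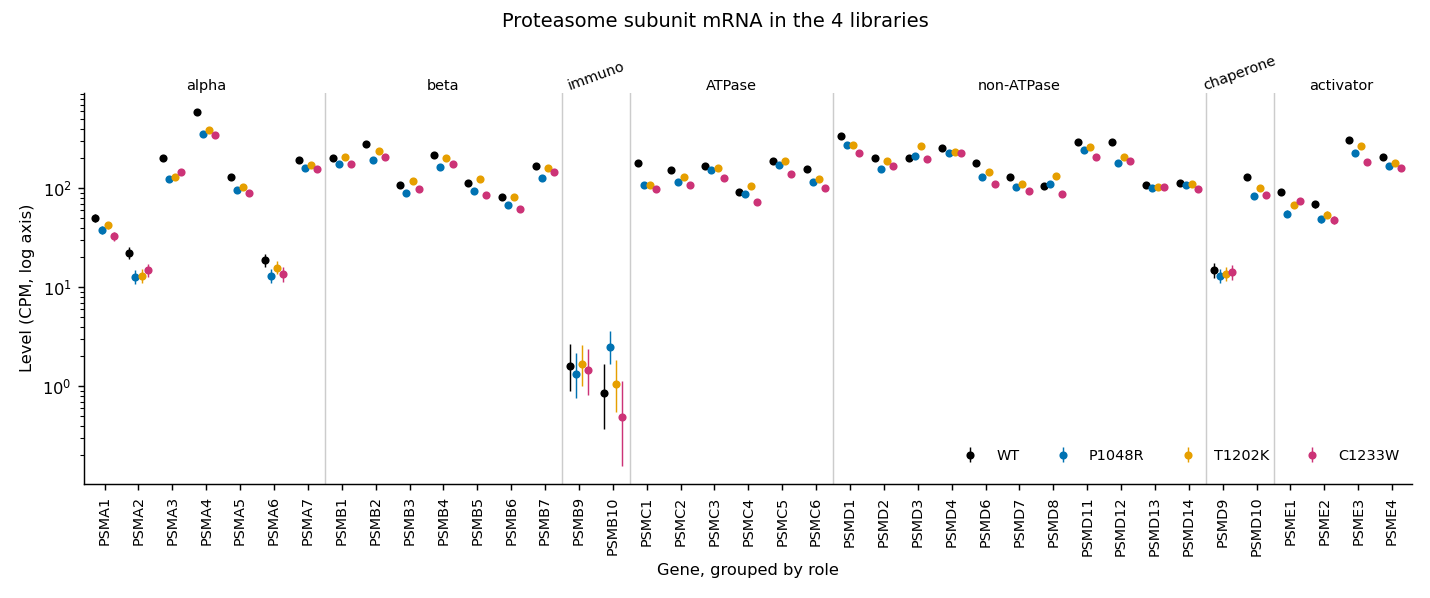
Level of the 39 proteasome genes (vertical axis, CPM, log scale) in the WT, P1048R, T1202K and C1233W libraries, grouped by role along the horizontal axis, with 95% Poisson intervals as bars. With TMM scaling, WT (black) is the highest of the 4 points in 29 genes. PSMB9 and PSMB10 lie far below the other members, at 0.484 to 2.51 CPM.

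The ATPase ring was lowest in C1233W. Its 6 genes summed to 931 CPM in WT, 752 in P1048R, 813 in T1202K and 644 in C1233W, log2 ratios of -0.31, -0.20 and -0.53. All 6 were lower past the size rule in C1233W, 3 in P1048R (PSMC1, PSMC2 and PSMC6) and 2 in T1202K (PSMC1 and PSMC6).

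PSMC1 stood at 178 CPM in WT, 108 in P1048R, 108 in T1202K and 99.1 in C1233W. Its mutant libraries were alike and all below WT, with log2 ratios of -0.72 (-0.83 to -0.62), -0.72 (-0.83 to -0.61) and -0.84 (-0.96 to -0.73), the lowest of any member in C1233W. NRDE2, on the opposite strand, overlaps 82.1% of the PSMC1 transcript and had 584, 530, 555 and 370 reads, and with the strand setting unknown their reads may not be fully separated. PSMC6 stood at 156, 116, 123 and 100.02 CPM, and PSMC2 at 152, 116, 130 and 107. In PSMC3, PSMC4 and PSMC5 only C1233W was lower past the size rule. PSMC3 stood at 167, 154, 159 and 126 CPM, PSMC4 at 91.8, 87.4, 106 and 72.1, and PSMC5 at 186, 171, 187 and 140. FTSJ3 overlaps 27.2% of PSMC5 on the opposite strand, with 2290, 2079, 2237 and 1375 reads.

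The 11 non-ATPase subunits of the regulatory particle had members on both sides of WT in P1048R and T1202K. They summed to 2215 CPM in WT, 1843 in P1048R, 2025 in T1202K and 1709 in C1233W. Log2 ratios were -0.27, -0.13 and -0.37, and the T1202K value turned to 0.05 with total counts. In P1048R 4 were lower past the size rule (PSMD2, PSMD6, PSMD7 and PSMD12), in T1202K 1 (PSMD12) with PSMD3 higher, and in C1233W 5 (PSMD1, PSMD6, PSMD7, PSMD11 and PSMD12).

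PSMD12, a scaffold subunit of the lid, stood at 290 CPM in WT, 181 in P1048R, 206 in T1202K and 187 in C1233W. It was lower in every mutant, with log2 ratios of -0.68, -0.49 and -0.63. PSMD3, another lid scaffold, went the other way, at 203, 213, 264 and 197 CPM. Its T1202K library was the highest, with a log2 ratio of 0.38 (0.29 to 0.46), while P1048R at 0.07 (-0.02 to 0.15) and C1233W at -0.05 (-0.14 to 0.04) were level with WT within counting error. PSMD8, also of the lid, stood at 106, 110, 133 and 86.9 CPM. T1202K was again the highest and C1233W the lowest, with log2 ratios of 0.05 (-0.07 to 0.17), 0.32 (0.20 to 0.44) and -0.29 (-0.42 to -0.16). The T1202K value lay just under the size rule, and passed it at 0.34 with DESeq2 size factors.

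PSMD1 and PSMD2, the large scaffold proteins of the base, stood at 338, 271, 270 and 228 CPM and at 200.1, 158, 189 and 168 CPM. PSMD4, a ubiquitin receptor, stood at 255, 227, 232 and 227 CPM, under the size rule in every mutant. PSMD14, the enzyme that removes ubiquitin from substrates, stood at 113, 108, 109 and 98.7 CPM, with no mutant past the size rule. PSMD7, its partner without enzyme activity, stood at 130, 103, 110 and 92.9 CPM. PSMD6 had 178, 131, 146 and 110 CPM, and PSMD11 294, 240, 262 and 209. PSMD13 stood at 107, 99.8, 104 and 104 CPM, 4 similar levels, with log2 ratios of -0.10 (-0.22 to 0.02), -0.04 (-0.17 to 0.08) and -0.04 (-0.17 to 0.08).

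Regulatory particle genes gave 57.0% of the reads of core plus regulatory particle in WT (56.6 to 57.5), 60.3% for P1048R (59.9 to 60.7), 58.8% for T1202K (58.4 to 59.2) and 57.5% for C1233W (57.0 to 57.9). P1048R stood highest, and the intervals of WT and C1233W overlapped.

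**Figure D3:**
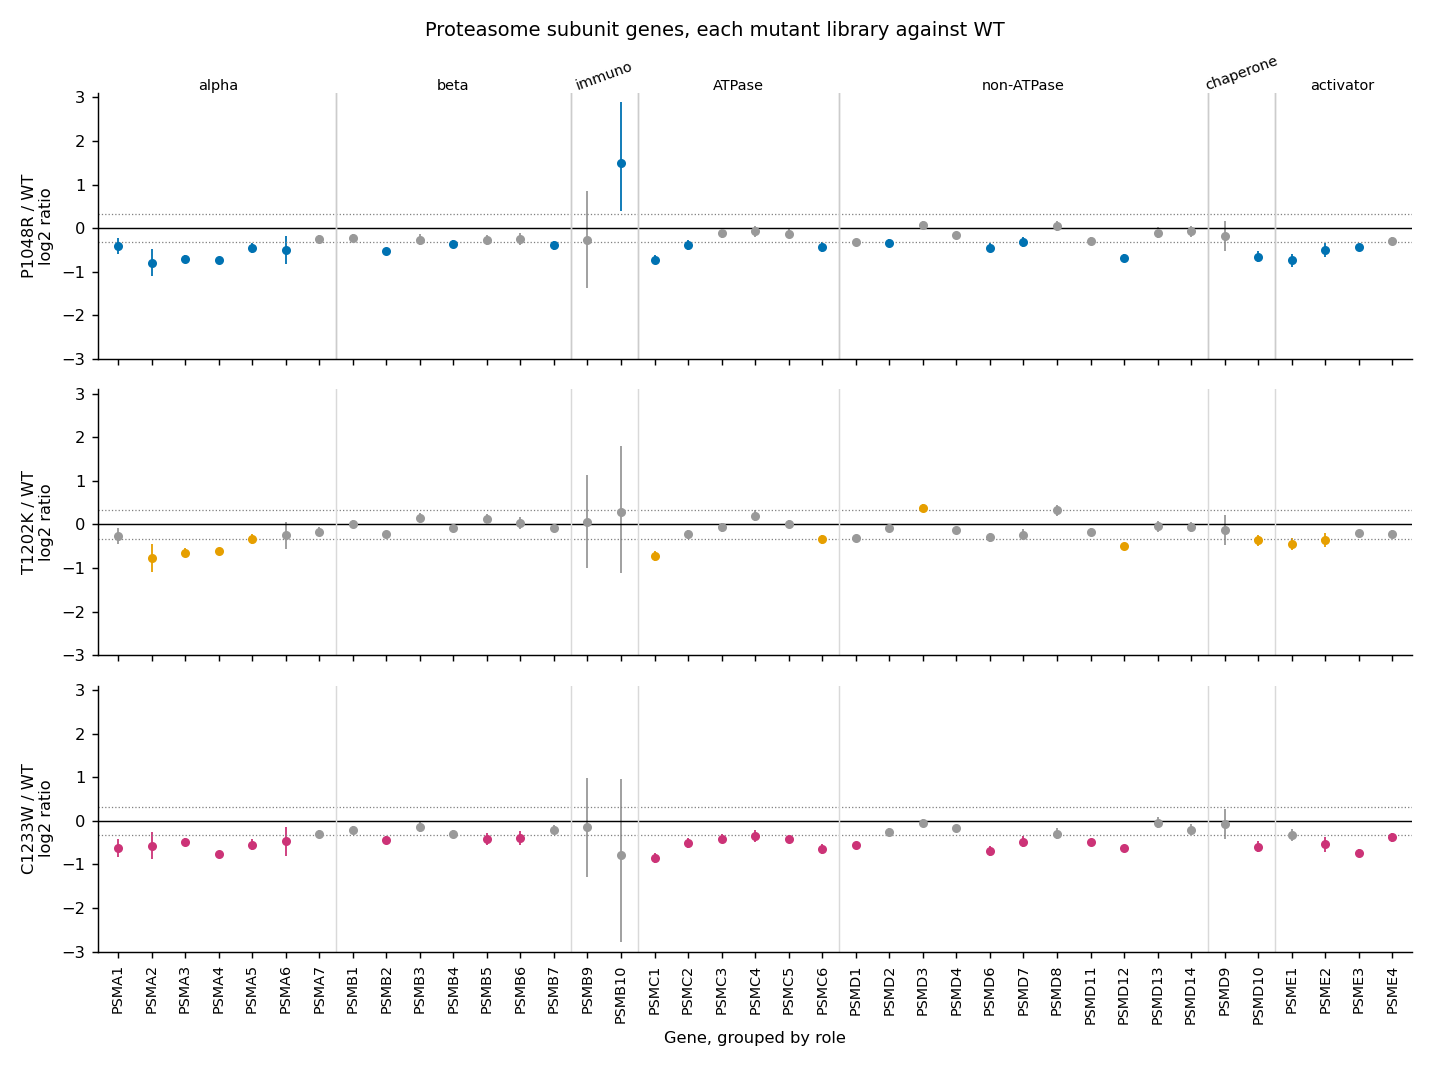
Log2 ratio of each mutant library to WT (vertical axis) for the 39 proteasome genes, grouped by role, with 95% counting intervals; coloured points passed the size rule (a log2 ratio of 0.32 in size, dotted lines, and an interval without 0) and grey points did not. Coloured points below 0 number 20 in P1048R, 10 in T1202K and 24 in C1233W, and those above 0 are PSMB10 in P1048R and PSMD3 in T1202K.

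PSMD5, PSMD9 and PSMD10 are chaperones that help to assemble the base and leave before the proteasome is complete. Their sum was 146 CPM in WT, 96.3 in P1048R, 115 in T1202K and 101 in C1233W, and most of it was PSMD10. PSMD10, also known as gankyrin, stood at 130, 82.9, 101 and 85.9 CPM and was lower past the size rule in every mutant, with log2 ratios of -0.65, -0.37 and -0.60. PSMD9 stood at 14.8, 13.0, 13.5 and 14.1 CPM. Its 4 libraries were level within counting error, with log2 ratios of -0.19 (-0.53 to 0.16), -0.13 (-0.47 to 0.21) and -0.06 (-0.41 to 0.28). PSMD5 was under 1 CPM in each library, at 0.963, 0.419, 0.353 and 0.774 CPM, and its ratios to WT all spanned 0.

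The activators open the core particle without ATP. PSME1 and PSME2 form one complex, known for its rise after interferon and its part in antigen processing, PSME3 forms a nuclear one and PSME4 acts alone. As a group they summed to 673 CPM in WT, 496 in P1048R, 565 in T1202K and 464 in C1233W, log2 ratios of -0.44, -0.25 and -0.54. Past the size rule 3 of the 4 were lower in P1048R, 2 in T1202K and 3 in C1233W.

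PSME1 stood at 91.9 CPM in WT, 55.2 in P1048R, 67.6 in T1202K and 73.6 in C1233W. P1048R was the lowest, with log2 ratios of -0.74 (-0.88 to -0.59), -0.44 (-0.58 to -0.30) and -0.32 (-0.46 to -0.18), the last just under the size rule. Its partner PSME2 stood at 68.8, 48.4, 54.0 and 47.6 CPM, with log2 ratios of -0.51 (-0.67 to -0.34), -0.35 (-0.51 to -0.19) and -0.53 (-0.70 to -0.36). All mutants were lower, and C1233W lay further from WT in PSME2 than in PSME1. PSME3 stood at 306, 225, 265 and 185 CPM. C1233W was the lowest, with log2 ratios of -0.44 (-0.52 to -0.36), -0.21 (-0.28 to -0.13) and -0.73 (-0.81 to -0.65). PSME4 stood at 206, 167, 178 and 158 CPM, with log2 ratios of -0.30 (-0.39 to -0.21), -0.21 (-0.30 to -0.12) and -0.38 (-0.47 to -0.28), past the size rule only in C1233W.

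Comparisons between the mutants do not use the WT library. C1233W was below T1202K: 11 of the 39 genes were lower and 0 higher, beside 11.8% and 10.1% of all genes, with a median log2 ratio of -0.22 (all genes -0.02) and 35 of 39 ratios below 0. The 4 furthest apart of those 11 were PSMD8 at -0.61 (-0.73 to -0.49), PSMC4 at -0.55 (-0.68 to -0.42), PSMB5 at -0.54 (-0.66 to -0.41) and PSME3 at -0.52 (-0.61 to -0.44). T1202K was above P1048R for 36 of 39 ratios, with a median of 0.16 (all genes 0.03). Only 2 genes passed the size rule upward, PSMB3 at 0.41 (0.29 to 0.52) and PSMB5 at 0.39 (0.27 to 0.50), and 1 downward, PSMB10, beside 5.89% and 4.73% of all genes, so neither count exceeded the share among all genes. C1233W and P1048R were close, with a median of -0.08 (all genes -0.0036). PSME1 was higher in C1233W at 0.42 (0.26 to 0.57), and PSMD8 at -0.34 (-0.47 to -0.22) and PSMB10 were lower, so 1 and 2 genes beside 12.7% and 12.2% of all genes. PSMB10 was the only member past 2-fold between mutants, at -1.21 (-2.35 to -0.24) in T1202K and -2.26 (-4.10 to -0.997) in C1233W against P1048R, where 1.24% and 4.54% of all genes passed. In C1233W against T1202K it was 0 members beside 3.54%.

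GC content of the transcript moved with these ratios. Among the 39 members, Pearson's r between GC content and the log2 ratio to WT was 0.57 in P1048R, 0.70 in T1202K and 0.45 in C1233W, and Spearman's rho 0.63, 0.72 and 0.49. Across 16258 genes tested with a known GC content, r was 0.099, 0.23 and 0.15. These are descriptions across genes of the same libraries, which are not independent points, and the 3 comparisons share the WT library. Of the 20 members of lower GC content (36.8% to 49.9%), 15, 8 and 17 were lower in P1048R, T1202K and C1233W, beside 21.8%, 17.2% and 18.1% of the 8142 genes tested in that GC range. Of the 19 of higher GC content (50.7% to 60.1%) the numbers were 5, 2 and 7, beside 17.3%, 9.05% and 13.3% of 4675 genes. PSMC6, PSMA5 and PSMD12 had the lowest GC content, at 36.8%, 37.2% and 37.9%, and PSMB10 and PSMD3 the highest, at 60.1% and 58.6%. With the trend of all genes on GC content and length removed, 17, 7 and 22 members were lower. Of all genes, 18.97%, 13.4% and 15.3% were lower in that setting. The members' median was -0.30, -0.17 and -0.38, beside -0.050, -0.047 and -0.033 for all genes. Relative to all genes, the members' median was -0.25, -0.12 and -0.35, smallest in size for T1202K. In T1202K 0 members were higher, beside 12.3% of all genes, and PSMD3 came to 0.19.

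**Figure D4:**
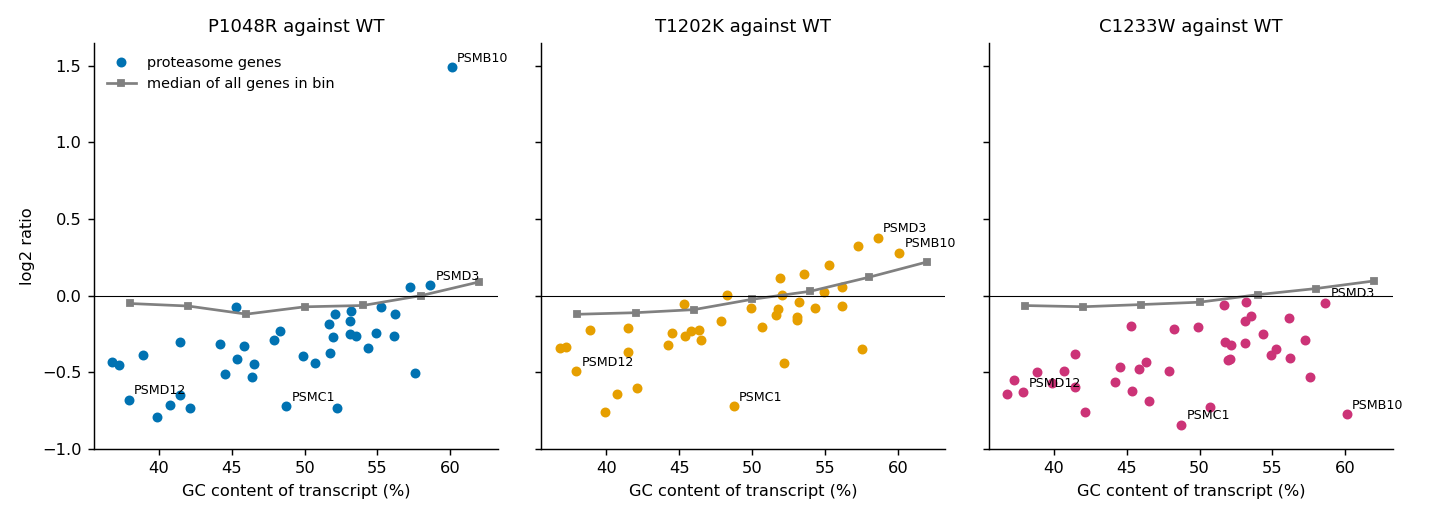
Log2 ratio to WT (vertical axis) against GC content of the principal transcript (horizontal axis, percent) for the 39 proteasome genes (coloured points), with the median of all genes tested in bins of GC content (grey squares and line), 1 panel per mutant. Members of low GC content such as PSMD12 lie well below the grey line, and the members' ratios rise with GC content (r of 0.57, 0.70 and 0.45).

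Some members share exons with another annotated gene or have pseudogenes. Leaving out members with at least 1% of the principal transcript under exons of another gene left 27 tested genes, of which 14, 7 and 16 were lower in P1048R, T1202K and C1233W, with medians of -0.34, -0.16 and -0.39. Annotated pseudogenes of the members, 32 for 12 genes, held at most 1.06% of the reads of their gene, which was PSMC1.

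Other genes of the pathway were set beside the subunits in 6 lists, whose counts read against 18.8%, 13% and 14.8% of all genes lower and 18.2%, 15.8% and 15.1% higher in P1048R, T1202K and C1233W. Of 15 assembly and accessory genes, 3 were lower and 2 higher in P1048R, 2 and 3 in T1202K and 4 and 0 in C1233W, with medians of -0.07, -0.04 and -0.07. The lower counts in P1048R and T1202K are near the shares of all genes. POMP, the chaperone that matures the core particle, stood at 100.1, 81.7, 86.8 and 81.6 CPM in WT, P1048R, T1202K and C1233W, with log2 ratios of -0.29, -0.21 and -0.29, none past the size rule. Named after their values were seen are SEM1 and USP14, which bind the regulatory particle, SEM1 as a small lid subunit and USP14 as a deubiquitinase. SEM1 stood at 133, 70.0, 67.7 and 84.3 CPM, lower in every mutant at -0.93 (-1.06 to -0.80), -0.98 (-1.11 to -0.84) and -0.66 (-0.79 to -0.53). USP14 stood at 218, 141, 152 and 143 CPM, with log2 ratios of -0.63, -0.52 and -0.61.

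Of 9 genes of transcriptional control, 1 was lower and 4 higher in P1048R, 0 and 3 in T1202K and 1 and 3 in C1233W, beside 18.2%, 15.8% and 15.1% of all genes higher and 18.8%, 13% and 14.8% lower. Their medians of 0.28, 0.12 and 0.16 lay above 0. NFE2L1 itself stood at 191, 185, 197 and 210 CPM, and its log2 ratios of -0.05 (-0.14 to 0.05), 0.04 (-0.05 to 0.13) and 0.14 (0.05 to 0.23) were all under the size rule. MAFF, a small MAF partner of such factors, was the only gene of the 6 lists past 2-fold against WT in any mutant, at 2.03, 3.85, 2.83 and 4.26 CPM, with a log2 ratio of 1.04 (0.26 to 1.92) in C1233W.

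The shares of all genes lower, 18.8%, 13% and 14.8%, and higher, 18.2%, 15.8% and 15.1%, apply to the remaining lists too. Of 6 ubiquitin and E1 genes, 4 were lower in P1048R, 2 in T1202K and 0 in C1233W, with 0 higher and medians of -0.37, -0.19 and -0.08. UBB, a polyubiquitin gene, stood at 408, 278, 360 and 382 CPM, with log2 ratios of -0.56 (-0.62 to -0.49), -0.18 (-0.24 to -0.12) and -0.09 (-0.16 to -0.03), so C1233W lay nearest to WT. That order differs from the subunits, whose median was lowest in C1233W. Of 10 genes of the VCP segregase and its cofactors, 1 was lower and 2 higher in P1048R, 0 and 1 in T1202K and 2 and 1 in C1233W. VCP, the ATPase that extracts ubiquitinated proteins, stood at 270, 197, 231 and 194 CPM, with log2 ratios of -0.46 (-0.54 to -0.38), -0.22 (-0.30 to -0.15) and -0.48 (-0.57 to -0.40). Of 9 shuttle factors 1, 1 and 0 were lower and 1, 1 and 1 higher, each below the share of all genes. Of 12 antigen presentation genes 2, 2 and 3 were lower and 1, 0 and 1 higher, with medians of -0.18, 0.03 and -0.10.

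**Figure D5:**
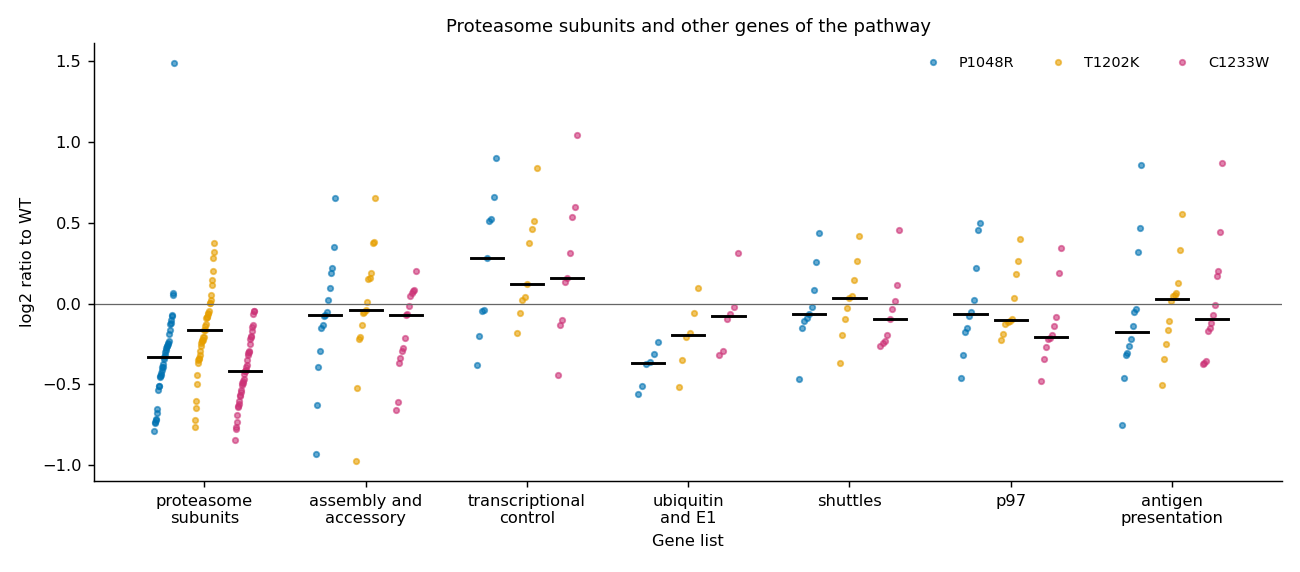
Log2 ratio to WT (vertical axis) of each tested gene of the proteasome subunits and of 6 lists of other pathway genes (horizontal axis), with P1048R, T1202K and C1233W side by side and a black bar at each median. In C1233W the subunits have the lowest median, -0.42, and all 39 of their points lie below 0, whereas the points of each other list lie on both sides of 0.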

How the data were processed

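RNA was measured in 4 libraries, 1 per construct, as described above. The authors deposited whole-number read counts per gene without normalization; Trim Galore, HISAT2, featureCounts and build hg38 are named, with no versions, per the submitters' processing notes. The labels' protocols name a stranded library kit; the annotation release and the counter's strand and multi-mapping settings are unknown here, which leaves overlapping genes and pseudogenes uncertain. Library sizes were scaled by TMM in edgeR 4.0.16 (R 4.3.3); the WT factor was 0.912 and those of P1048R, T1202K and C1233W were 1.07, 1.03 and 0.999; DESeq2 1.42.0 size factors were an alternative. Ratios added 0.5 to each count, and their intervals are Clopper-Pearson intervals of the read share. The calculation was tested on simulated data. Some marker genes are not reported here. Identifiers matched GENCODE release 29 (GRCh38), which gave overlaps, GC content and length of the longest APPRIS principal transcript. The members, the lists and the rule for named genes were chosen with earlier results of these data known. That rule gives full values for the active-site and immunoproteasome subunits, the activators, and the 3 highest and 3 lowest members per mutant, and names pathway genes past 2-fold plus NFE2L1, POMP, VCP and UBB.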

Additional observations from a re-analysis of the deposited data

How the results depend on the processing

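Medians and counts of the members were recomputed under 10 other settings, and 144 of 174 values stayed within a set tolerance. A count could change by up to 1.5-fold. A median had to keep its sign and move by less than 0.107 to 0.118, depending on the comparison. The C1233W count of 24 lower, which fell to 17 with total counts, is thus among the 144. So are all values under a prior count of 2, no filter on level and added pseudogene reads. Those settings could change the members only little. With total counts the members' median was -0.10 in P1048R, 0.012 in T1202K and -0.29 in C1233W against WT. Lower were 7 and 4 genes in P1048R and T1202K, beside 8.01% and 5.45% of all genes. In T1202K 3 were higher, beside 27.3%. In C1233W against P1048R 8 were lower, near the 19.4% of all genes. The T1202K to WT ratio of the beta sum turned to 0.13 and that of the non-ATPase sum to 0.047, and the beta sum of C1233W against P1048R to -0.039. With totals that left out PBRM1 and the mitochondrially encoded genes the medians were -0.17, -0.043 and -0.26, and the T1202K beta ratio was 0.072. Lower were 10, 5 and 15 genes, beside 10.3%, 7.13% and 6.59% of all genes, and 2 were higher in T1202K, beside 23.3%. DESeq2 size factors gave 2 higher in T1202K, beside 17.0% of all genes. Removing the GC and length trend gave 0 higher in T1202K, beside 12.3% of all genes. A minimum of 5 CPM, or leaving out members under exons of another gene (chosen after seeing the data), dropped PSMB10. Then 0 were higher in P1048R, 0 lower in T1202K against P1048R and 1 lower in C1233W against P1048R. The shares of all genes were 21.5%, 5.13% and 15.3% at 5 CPM, and 18.2%, 4.73% and 12.2% for the exon rule. At 1.5-fold, 7, 4 and 8 genes were lower in P1048R, T1202K and C1233W against WT, beside 8.99%, 5.29% and 4.94% of all genes. In T1202K 0 were higher, beside 7.96%. Against P1048R, 0 were higher in T1202K or C1233W, beside 1.69% and 7.63%, and 1 was lower in C1233W, beside 3.36%. In C1233W against T1202K 1 was lower, beside 2.90%. A prior count of 2, no filter on level and added pseudogene reads changed no call. Apart from fewer genes or a larger fold in the last settings, the cause was not tested. No paired analysis was possible because each construct has 1 library.

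With 1 library per construct no interval holds the variation between cultures, and nearly all differences are under 2-fold. Depth limits PSMB8, PSMB9, PSMB10 and PSMD5, which have at most 30 reads in any library.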
